A study of Mus musculus with 3 samples.

Results

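The insulin-like growth factors and their binding proteins were described here as 10 genes of the 54532 in the deposited hippocampal expression table, chosen by gene symbol: the ligands Igf1 and Igf2, the receptors Igf1r and Igf2r, and the binding proteins Igfbp2, Igfbp3, Igfbp4, Igfbp5, Igfbp6 and Igfbp7. All 10 were found, each in a single row. RNA came from the hippocampus of mice aged 10 months on a C57BL/6 background, with 1 library for each of 3 genotypes. WT mice carry neither alteration. In PS19 mice, a tauopathy line, a transgene makes human tau from the mouse Prnp promoter, which is active in neurons throughout the brain and not in the hippocampus alone. The third genotype, labelled PS19, Zbp1+- and written PS19 Zbp1+/- here, carries the same transgene and has lost 1 allele of Zbp1, a sensor of left-handed Z-form nucleic acids. The groups allow PS19 to be set against WT, and PS19 with lowered Zbp1 dosage to be set against both. How many animals each library holds, their sex and how the Zbp1 allele was made are not given in the sources used here. With 1 library per genotype, differences could not be checked across replicates, and every interval below covers the error of counting reads and nothing else.

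Igf1 and Igf2 are small secreted hormones that act through Igf1r, a receptor tyrosine kinase that signals to growth and survival through the Akt and mTOR pathway. Igf2r, the cation-independent mannose phosphate receptor, does not signal in this way: it takes Igf2 up for breakdown and sorts enzymes to lysosomes. The binding proteins hold the ligands outside cells and can either block them or carry them to the receptor. In the brain Igf1 is made by some neurons and is raised in activated microglia, while Igf2 and Igfbp2 are rich in the choroid plexus and meninges, and Igfbp2 is also made by astrocytes.

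Levels are given as FPKM, which divides the fragments of a gene by its length and by the library size, and as the whole reads recovered from those values. Where 3 values stand together, they are for WT, PS19 and PS19 Zbp1+/-, in that order. The reads summed to between 16400328 and 17109734 per library. The hippocampal excitatory neuron markers Slc17a7, Neurod6, Prox1, Wfs1, Grik4, Rbfox3 and Camk2a had reads in every library, with summed FPKM values of 713, 649 and 977. Mouse Mapt, the endogenous tau gene, had FPKM values of 63.0, 65.1 and 65.3. Zbp1 had 5 reads in WT tissue, 91 in PS19 and 0 in PS19 Zbp1+/-, where 0 reads allow an FPKM of up to 0.0537 (3 reads), so the reads do not tell the loss of 1 allele from the loss of both. The PS19 Zbp1+/- library had 0 reads of the X inactivation transcript Xist, against 11062 in WT and 13350 in PS19, and had 711 reads of the Y-linked Ddx3y, against 0 in both others. Sex and Zbp1 dosage therefore cannot be told apart in its comparisons. It also held fewer weakly expressed genes than the others, as given beside Igf2 below.

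A gene entered a comparison if it was protein-coding and reached an FPKM of 1 in either library, and it was called where its log2(FPKM + 1) differed by 1 or more, a 2-fold step on that scale. The scale understates the differences of weakly expressed genes. A gene that reached an FPKM of 1 in only 1 library of a pair could differ in 1 direction only. Igf2 entered no comparison, and Igf1 entered only those with PS19, where alone it reached an FPKM of 1. Between PS19 and WT, 9 of the 10 members entered. Of these, 1 was called in either direction, where 2.5% of 12703 genes were. It was Igfbp5, called higher, where 2.2% of all genes were, and no member was called lower, where 0.291% were. The median difference of the 9 members was -0.09, against -0.03 over all genes tested. Between PS19 Zbp1+/- and PS19, 2 of 9 members were called, where 7.16% of 12772 genes were. Both, Igfbp2 and Igfbp5, were called lower, where 5.16% of all genes were, and none was called higher, where 2% were. The medians were 0.01 over the members and 0.04 over all genes. Between PS19 Zbp1+/- and WT, 1 of 8 members was called, where 3.35% of 12436 genes were. It was Igfbp2, called lower, where 2.28% of all genes were, and none was called higher, where 1.07% were. The medians there were -0.07 and 0.01. Counts this small say little of the family as a whole. The 2 comparisons that include PS19 share that library, so a level that is high in it by chance gives a higher value in the one and a lower value in the other.

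**Figure D1:**
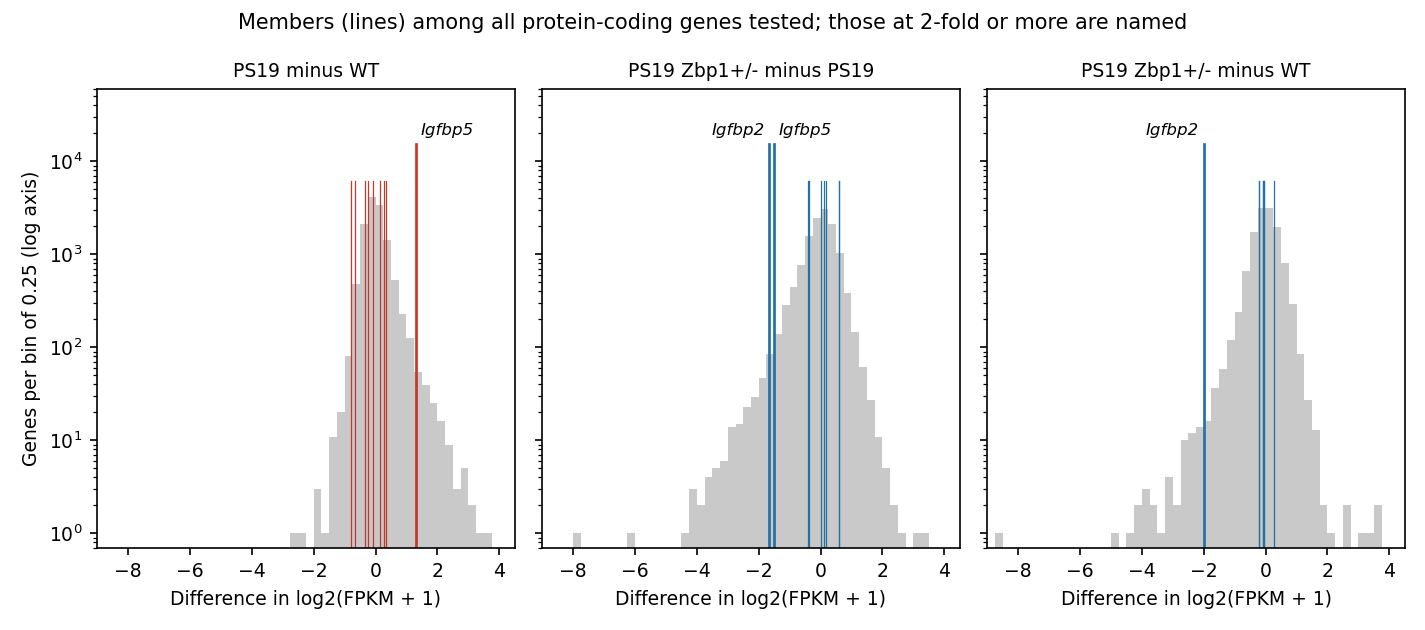
Differences in log2(FPKM + 1) of all protein-coding genes tested (grey bars, genes per bin of 0.25 on a log axis) in the 3 comparisons, with the members as vertical lines. Igfbp5 lies at 1.32 in PS19 minus WT, Igfbp2 and Igfbp5 at -1.67 and -1.52 in PS19 Zbp1+/- minus PS19, and Igfbp2 at -2.01 in PS19 Zbp1+/- minus WT.

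By deposited FPKM the ligands were the lowest of the 10 genes in every library, with the limit on Igf2 given below. Igf1 (ENSMUSG00000020053; GRCm38 chromosome 10, 87858265 to 87937042, plus strand) had 116 reads in WT tissue, 179 in PS19 and 88 in PS19 Zbp1+/-, or FPKM values of 0.679, 1.05 and 0.561. PS19 was the highest library. Its reads per library size were 1.54-fold those of WT, and the exact (Clopper-Pearson) 95% interval ran from 1.21 to 1.96. PS19 Zbp1+/- was 1.86-fold below PS19 (1.43 to 2.43), and its ratio to WT was 0.827 (0.620 to 1.10), an interval that includes equality. After rescaling each library to the same sum, that ratio to WT was 0.742. The differences in log2(FPKM + 1) were 0.28 for PS19 minus WT and -0.39 for PS19 Zbp1+/- minus PS19, under the 2-fold call. Igf1 reached an FPKM of 1 in PS19 alone, so entry fixed the direction of both differences. It did not enter the comparison of PS19 Zbp1+/- with WT. The read ratio of PS19 Zbp1+/- to PS19, 0.537 as deposited, was 0.441 after rescaling each library to the same sum and 0.471 by total reads, so whether it passed 2-fold depended on the scaling.

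The summed level of microglial markers, like Igf1, was highest in PS19. Of 10 microglial markers, Cx3cr1, Csf1r, P2ry12 and Tmem119 among them, 5 were called higher in PS19 against WT and 6 were called lower in PS19 Zbp1+/- against PS19. Their summed FPKM was 89.1, 233 and 108, and no marker was at 0. All but P2ry12 lay above 0 in PS19 minus WT, and P2ry12 was at -0.13. Of 9 activated microglia markers tested, 7 were called higher in PS19 and 8 were called lower in PS19 Zbp1+/- against PS19, with sums of 28.4, 105 and 22.9 over the list of 10, and Cst7 was at 0 in PS19 Zbp1+/-. The marker not tested was Clec7a, with 1, 428 and 4 reads. It reached an FPKM of 9.38 in PS19, so the protein-coding rule left it out and not a low level. Among those tested, Cst7, Itgax and Ccl6 reached an FPKM of 1 in PS19 alone, so entry fixed the direction of their differences. The same held for Lgals3 and the microglial marker Itgam between PS19 Zbp1+/- and PS19. Between PS19 Zbp1+/- and WT, 6 activated microglia markers were tested, with 0 called higher and 1 lower. Igf1 differed less than Cx3cr1, the microglial fractalkine receptor, but more than P2ry12 and Tmem119. In reads, PS19 was 1.54-fold WT for Igf1, 5.41-fold for Cx3cr1, 0.904-fold for P2ry12 and 1.13-fold for Tmem119. The other microglial markers lay above Igf1 there, from 1.61 for Olfml3 to 7.45 for Fcrls. A ratio of Igf1 to a marker therefore depends on the marker. The FPKM of Cx3cr1 was 4.08, 22.1 and 10.8, so the ratio of Igf1 to Cx3cr1 was 0.166 in WT (0.133 to 0.207), 0.0474 in PS19 (0.0404 to 0.0553) and 0.0521 in PS19 Zbp1+/- (0.0413 to 0.0651). The part of microglia in the Igf1 values was not tested. In RNA of whole tissue, fewer cells of a type and less RNA per cell cannot be told apart.

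Igf2 (ENSMUSG00000048583; chromosome 7, 142650766 to 142666816, minus strand) stayed under an FPKM of 1 in all 3 libraries and entered no comparison. It had 42 reads in WT tissue, 39 in PS19 and 12 in PS19 Zbp1+/-, or FPKM values of 0.425, 0.394 and 0.132. WT and PS19 did not differ detectably at this depth, with a ratio of 0.927 (0.584 to 1.47). PS19 Zbp1+/- stood apart, 2.98-fold below PS19 (1.53 to 6.24) and 3.21-fold below WT (1.66 to 6.70). Counts this much lower were common in that library: in WT and PS19 alike, 382 protein-coding genes had 30 to 55 reads, and 73 of these had 12 reads or fewer in PS19 Zbp1+/-, a share of 19.1% (exact interval at 95% from 15.3% to 23.4%). The matching shares were 2.07% for WT and 1.02% for PS19. A low count of this kind was therefore not particular to Igf2. The share does not tell genes at a lower level from counts lost in that library, and the interval of Igf2 does not cover such a loss.

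The level of Igf2 also depends on how shared reads were counted. In the GENCODE M21 annotation, 3596 of its 5723 exonic bases, or 62.8%, are also exonic in Gm49394, a protein-coding gene that lies over Igf2 on the same strand and had 0 reads in all 3 libraries. A further overlap is with the antisense gene Igf2os, which had 5, 7 and 8 reads. Only 2029 exonic bases belong to Igf2 alone. Since Gm49394 had 0 reads, no read was counted for both Igf2 and Gm49394. Whether reads in the shared bases were given to Igf2 or dropped is not given in the sources used here. The FPKM of Igf2 is therefore not a firm level to set against those of the other genes.

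The imprinted neighbours of Igf2 and Igf2r were mostly weak. Of the list H19, Igf2os, Ascl2, Cdkn1c, Phlda2, Kcnq1ot1, Airn, Slc22a2 and Slc22a3, 1 of 9 genes could be tested. Cdkn1c, an inhibitor of cell division from the imprinted cluster next to Igf2, had 247, 232 and 40 reads. It fell by 1.76 log2 units from PS19 to PS19 Zbp1+/-, a read ratio 5.31-fold lower (3.78 to 7.63), and by 1.84 from WT to PS19 Zbp1+/-. Its ratio of PS19 to WT was 0.937 (0.780 to 1.13), an interval that includes equality. H19, the noncoding RNA expressed from the other parental allele, had 4, 13 and 0 reads.

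Neither receptor was called in any comparison. Igf1r (ENSMUSG00000005533; chromosome 7, 67952827 to 68233668, plus strand) had 1273, 1685 and 1097 reads, or FPKM values of 4.39, 5.80 and 4.13. PS19 was again the highest, at 1.32-fold WT (1.23 to 1.42), and PS19 Zbp1+/- was 1.41-fold below PS19 (1.302 to 1.519). The ratio of PS19 Zbp1+/- to WT was 0.939 (0.866 to 1.02) as deposited, 0.842 after rescaling to the same sum and 0.843 by total reads. Insr, the insulin receptor and closest relative of Igf1r, had 1011, 1325 and 974 reads. Its PS19 value was 1.31-fold that of WT (1.20 to 1.42) and its PS19 Zbp1+/- value 0.803-fold that of PS19 (0.738 to 0.873). The level of Igf1r relative to Insr was 1.03 in WT (0.948 to 1.12), 1.04 in PS19 (0.968 to 1.12) and 0.922 in PS19 Zbp1+/- (0.845 to 1.01) in FPKM, and each of these intervals includes equality.

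Igf2r (ENSMUSG00000023830; chromosome 17, 12682406 to 12769664, minus strand) had 795, 907 and 910 reads, or FPKM values of 4.95, 5.64 and 6.18. PS19 was 1.14-fold WT (1.03 to 1.25) and PS19 Zbp1+/- was 1.25-fold WT (1.13 to 1.37). PS19 Zbp1+/- over PS19 was 1.10 (0.9985 to 1.203), a direction that turned after rescaling each library to the same sum, where the ratio was 0.899. The balance of the receptors, which does not depend on the scaling of a library, was 0.888 Igf1r per Igf2r in WT (0.812 to 0.971), 1.03 in PS19 (0.949 to 1.12) and 0.668 in PS19 Zbp1+/- (0.611 to 0.730) in FPKM. The antisense RNA Airn, which overlaps Igf2r without sharing exonic bases in the annotation, had 19, 17 and 15 reads.

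**Figure D2:**
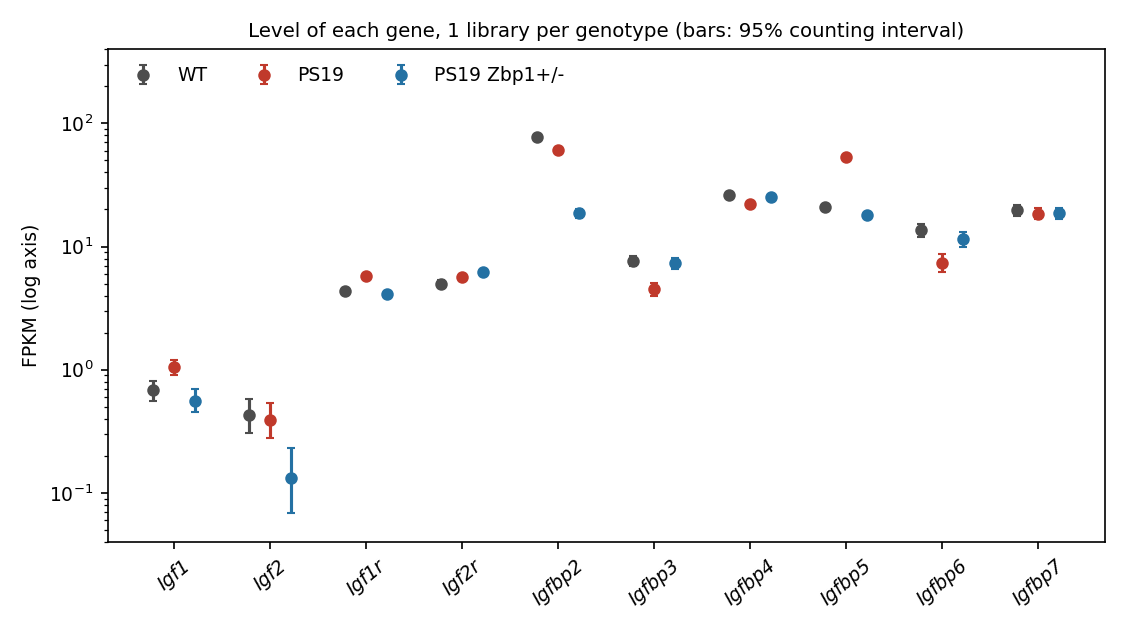
FPKM (log axis) of the 10 genes in WT, PS19 and PS19 Zbp1+/-, 1 point per library, with exact 95% Poisson intervals for counting error as bars. Igfbp2 stands highest in WT at 77.7 and drops to 18.6 in PS19 Zbp1+/-, while Igfbp5 stands at 53.4 in PS19 against 20.9 and 18.0 in the others.

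Igfbp2 and Igfbp5, the members called in these comparisons, are neighbours on chromosome 1. Their genes point towards each other and their ends lie 5457 bases apart. Both proteins bind the ligands with high affinity, and both can also bind to the matrix around cells. The 250 bases before the RefSeq start of each gene, on GRCm38.p6, are shown because these neighbours had different patterns over the libraries. Whether these bases bear on the patterns was not tested. The RefSeq starts are not those of the deposited positions. The last bases of the Igfbp5 window lie inside the gene as deposited, and the Igfbp2 window ends short of the deposited start. Distances below are from the RefSeq starts. Capitals mark matches to the GC box (GGGCGG, either strand) and the E-box (CANNTG, the same on both strands); the matches do not overlap. They are written from the gene's own strand, Igfbp2 at chr1:72824230-72824479 on the plus strand and Igfbp5 at chr1:72874866-72875115 on the minus strand.
Igfbp2: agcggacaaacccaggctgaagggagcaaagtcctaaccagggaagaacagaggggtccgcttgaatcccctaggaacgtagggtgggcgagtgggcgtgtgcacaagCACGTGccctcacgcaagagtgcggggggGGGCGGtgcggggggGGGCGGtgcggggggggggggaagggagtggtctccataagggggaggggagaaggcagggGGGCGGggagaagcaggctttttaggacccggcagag
Igfbp5: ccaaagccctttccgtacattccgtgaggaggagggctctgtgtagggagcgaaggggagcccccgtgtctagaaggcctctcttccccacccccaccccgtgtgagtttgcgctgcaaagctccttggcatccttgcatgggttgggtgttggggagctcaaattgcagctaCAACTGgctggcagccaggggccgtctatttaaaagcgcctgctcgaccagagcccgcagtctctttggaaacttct

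The Igfbp2 window holds 3 GC boxes, which begin 113, 98 and 37 bases before the start, and 1 E-box at 142 bases. The Igfbp5 window holds no GC box and 1 E-box at 77 bases. Of 32851 RefSeq promoter windows of the same length, 32.7% held a GC box and 66.2% an E-box. Neither window holds TATAAA on either strand, which 12.4% of all windows did. CG pairs numbered 14 in the Igfbp2 window and 10 in that of Igfbp5, against a median of 6 over all windows. A match is a run of letters and not a measured binding site. Igfbp2 has a second start in RefSeq, which is not shown.

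Igfbp2 (ENSMUSG00000039323; chromosome 1, 72824503 to 72852474, plus strand) had 2475 reads in WT tissue, 1954 in PS19 and 543 in PS19 Zbp1+/-, or FPKM values of 77.7, 61.2 and 18.6. It was the highest member in WT and PS19, and PS19 Zbp1+/- lay far below both. It fell by 1.67 log2 units from PS19 to PS19 Zbp1+/-, a read ratio 3.29-fold lower (2.99 to 3.63). From WT to PS19 Zbp1+/- it fell by 2.01, or 4.18-fold in reads (3.81 to 4.60), and only 52 of the other genes tested had a lower difference. PS19 was 1.27-fold below WT (1.20 to 1.35), a difference of -0.34 that was not called.

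Markers of the choroid plexus and meninges, like Igfbp2, had their lowest sums in PS19 Zbp1+/-. All 14 choroid plexus markers (Ttr, Folr1, Kl, Clic6, Kcnj13, Enpp2, Aqp1, Otx2, Slc4a5, Cldn2, Kcne2, Calml4, Sostdc1, Prlr) were called lower in PS19 Zbp1+/- against PS19, with a median difference of -2.94. Their summed FPKM was 3472, 2207 and 27.5, and Slc4a5 was at 0 in PS19 Zbp1+/-. Apart from Ttr, Kl, Enpp2 and Sostdc1, these markers were under an FPKM of 1 in PS19 Zbp1+/-. Entry therefore fixed the direction of their differences but not the size. Of 13 meningeal fibroblast markers tested, 8 were called lower against PS19 and 1 was called higher, with sums of 516, 395 and 109 over the list of 14 and no marker at 0. The higher one was Dcn, a matrix proteoglycan, with 1140, 474 and 1910 reads. Most of each meningeal sum came from 1 gene, Ptgds, with FPKM values of 447, 342 and 70.0. Col1a1, Col1a2, Slc13a4 and Aldh1a2 were under an FPKM of 1 in PS19 Zbp1+/-, which fixed their direction in the same way. Ttr, the thyroxine carrier that the choroid plexus secretes, had 63846, 38820 and 136 reads, 261-fold lower in the last against PS19 (221 to 312). Igfbp2 differed less than Ttr: its FPKM was 0.0256 of that of Ttr in WT (0.0246 to 0.0266), 0.0332 in PS19 (0.0317 to 0.0348) and 2.64 times that of Ttr in PS19 Zbp1+/- (2.18 to 3.204). Between PS19 and WT, 1 of the 14 choroid plexus markers was called lower and 12 lay below 0, with a median of -0.30, beside the -0.34 of Igfbp2 and the 0.927-fold ratio of Igf2. The part of these tissues in the values of Igfbp2 and Igf2 was not tested.

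**Figure D3:**
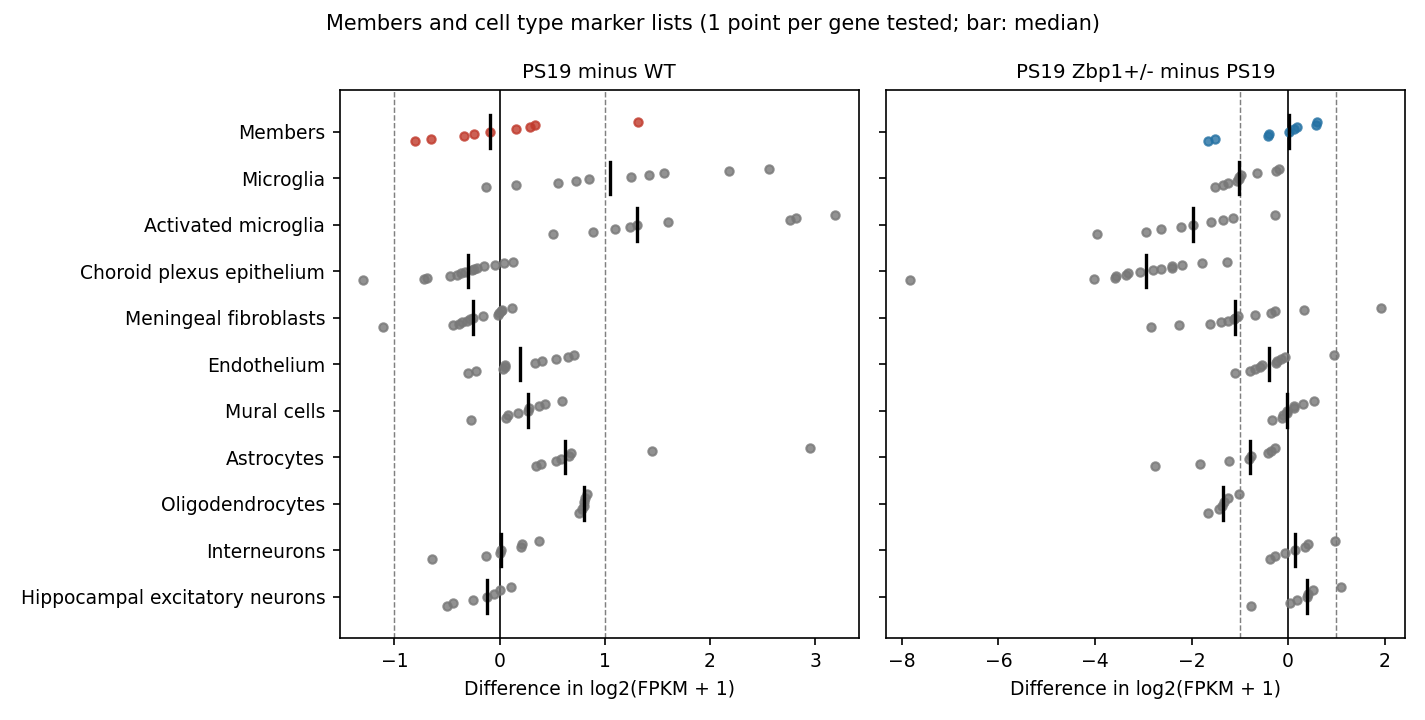
Differences in log2(FPKM + 1) of the members and of 10 lists of cell type markers, in PS19 minus WT and in PS19 Zbp1+/- minus PS19, with 1 point per gene tested, a bar at each median and dashed lines at 2-fold. The choroid plexus list has its median at -0.30 on the left and -2.94 on the right, and the activated microglia list at 1.31 and -1.98, while the members have medians of -0.09 and 0.01.

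Igfbp5 (ENSMUSG00000026185; chromosome 1, 72857932 to 72874884, minus strand) had another order, with 2162 reads in WT tissue, 5547 in PS19 and 1709 in PS19 Zbp1+/-, or FPKM values of 20.9, 53.4 and 18.0. PS19 was far above both others. It rose by 1.32 log2 units from WT to PS19, a read ratio of 2.56 (2.44 to 2.69), and 145 of the 12703 genes tested had a larger difference. It fell by 1.52 from PS19 to PS19 Zbp1+/-, 2.97-fold in reads (2.81 to 3.14). PS19 Zbp1+/- lay closer to WT, at a ratio of 0.862 (0.808 to 0.919), a difference of -0.20 that was not called. That interval excludes equality. The ratio was 0.773 after rescaling to the same sum and 0.774 by total reads, so its closeness to WT depended on the scaling.

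The summed levels of astrocyte, microglial and oligodendrocyte markers, like Igfbp5, were highest in PS19. All 8 astrocyte markers (Aqp4, Aldh1l1, Slc1a2, Slc1a3, Gja1, Sox9, Gfap, S100b) lay above 0 in PS19 minus WT, 2 of them at 2-fold or more, and all 8 lay below 0 in PS19 Zbp1+/- minus PS19, 3 of them at 2-fold or more, with summed FPKM values of 422, 1280 and 434 and no marker at 0. Gfap, the intermediate filament of reactive astrocytes, had FPKM values of 98.4, 768 and 112, and the ratio of Igfbp5 to Gfap was 0.212, 0.0696 and 0.160. Gfap was the extreme of its list, at 2.95 in PS19 minus WT and -2.76 in PS19 Zbp1+/- minus PS19. The medians of the astrocyte list were 0.62 and -0.78, and Igfbp5 lay between, at 1.32 and -1.52. The 6 oligodendrocyte markers, Mbp, Mog and Mag among them, had sums of 766, 1347 and 501, with none called in PS19 minus WT, 6 called lower in PS19 Zbp1+/- minus PS19 and no marker at 0. Their part in the values of Igfbp5 was not tested. Mural cell markers differed less, with 0 of 9 called in either comparison and sums of 74.0, 84.8 and 86.3, and endothelial markers had sums of 106, 122 and 97.5. Of the 10 endothelial markers, 8 lay above 0 in PS19 minus WT with none called, and 9 lay below 0 in PS19 Zbp1+/- minus PS19 with 1 called lower. The junction gene Cldn5 went against its list in both, with FPKM values of 22.4, 19.1 and 38.1.

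**Figure D4:**
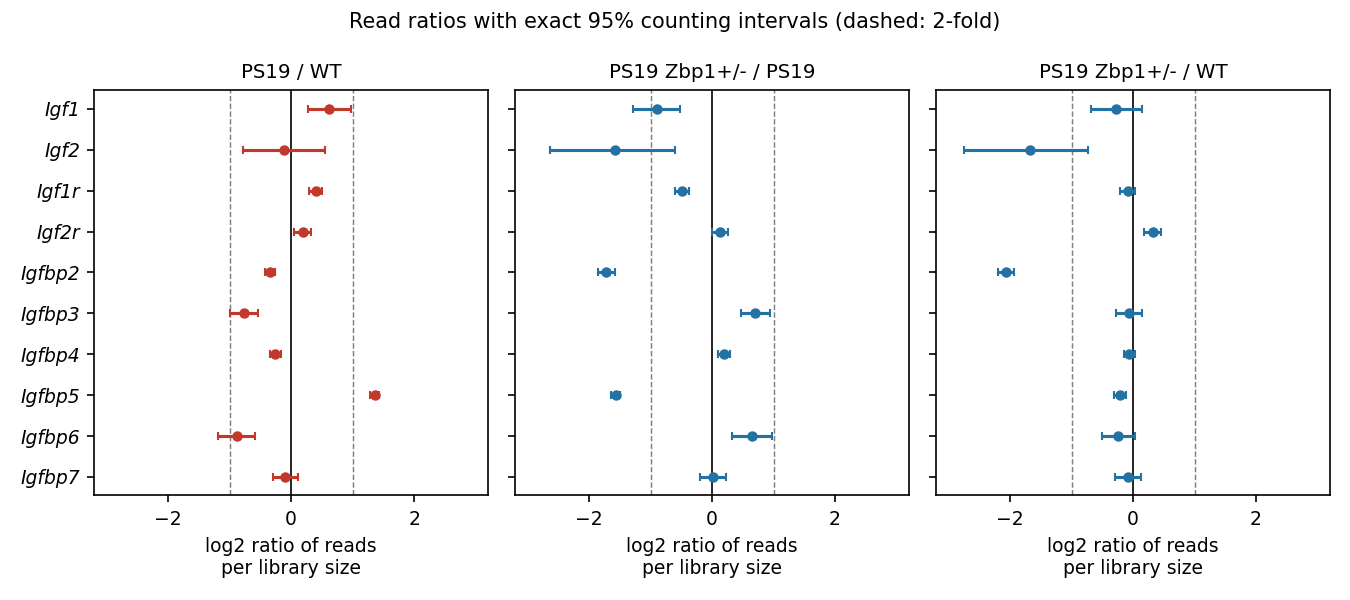
Log2 ratio of reads per library size for each member in the 3 comparisons, with exact 95% counting intervals as bars and dashed lines at 2-fold. Igfbp5 is the only member right of a dashed line, in PS19 over WT. Igfbp2 and Igf2 lie left of 2-fold in both comparisons of PS19 Zbp1+/- and Igfbp5 in that against PS19, with wide bars for Igf2 from its 12 to 42 reads.

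Igfbp3 and Igfbp6 were lowest in PS19, where Igfbp5 was highest, and neither was called. Igfbp6 (ENSMUSG00000023046; chromosome 15, 102144362 to 102149511, plus strand), which binds Igf2 in preference to Igf1, had 260 reads in WT tissue, 141 in PS19 and 202 in PS19 Zbp1+/-, or FPKM values of 13.6, 7.33 and 11.5. PS19 was 1.85-fold below WT (1.499 to 2.284), a difference of -0.80, and 89 of the 12703 genes tested had a lower one. PS19 Zbp1+/- was 1.56-fold PS19 (1.26 to 1.95) and its ratio to WT, 0.847, had an interval that includes equality (0.701 to 1.02). Igfbp3 (ENSMUSG00000020427; chromosome 11, 7206086 to 7213923, minus strand), the main carrier of the ligands in blood, had 413, 243 and 362 reads, or FPKM values of 7.65, 4.49 and 7.31. PS19 was 1.70-fold below WT (1.45 to 2.004), a difference of -0.66. PS19 Zbp1+/- was 1.63-fold PS19 (1.38 to 1.92). As deposited it did not differ detectably from WT at a ratio of 0.956 (0.827 to 1.10), which was 0.857 after rescaling to the same sum. As deposited, the WT and PS19 Zbp1+/- values of both genes lay closer to each other than to PS19. For Igfbp6 this depended on the scaling. After rescaling to the same sum, PS19 Zbp1+/- was 1.28-fold PS19 and 0.759-fold WT, and by total reads 1.37-fold and 0.760-fold.

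Igfbp4 and Igfbp7 were the most even binding proteins. Igfbp4 (ENSMUSG00000017493; chromosome 11, 99041244 to 99054392, plus strand), mainly an inhibitor of ligand action, had 2005, 1683 and 1762 reads, or FPKM values of 26.3, 22.0 and 25.2. PS19 was 1.19-fold below WT (1.12 to 1.27). PS19 Zbp1+/- over PS19 was 1.14 (1.07 to 1.22), which turned to 0.938 after rescaling to the same sum. Igfbp7 (ENSMUSG00000036256; chromosome 5, 77349240 to 77408041, minus strand), a weak binder of the ligands found around blood vessels, had 411, 386 and 357 reads, or FPKM values of 19.7, 18.5 and 18.7. PS19 was 0.937-fold WT (0.814 to 1.08) and PS19 Zbp1+/- was 1.01-fold PS19 (0.872 to 1.17), both with intervals that include equality and both turning under rescaling to the same sum, to 1.02 and 0.829. The last 85 bases of Igfbp7 are also exonic in Polr2b on the other strand, 7.03% of its exonic length.

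The order of the members changed between libraries mainly through Igfbp2 and Igfbp5. The last place of Igf2 holds for the deposited FPKM only, given the bases it shares with Gm49394. In WT the FPKM fell from Igfbp2 through Igfbp4, Igfbp5, Igfbp7, Igfbp6, Igfbp3, Igf2r, Igf1r and Igf1 to Igf2, and the counting intervals of Igfbp5 and Igfbp7, of Igf2r and Igf1r, and of Igf1 and Igf2 overlapped. In PS19 Igfbp5 came next to Igfbp2, and both receptors stood above Igfbp3. In PS19 Zbp1+/- Igfbp4 was the highest, followed by Igfbp7, Igfbp2 and Igfbp5, whose intervals overlapped from one to the next.

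The summed FPKM of the 6 binding proteins was 166, 167 and 99.2. The similar sums of WT and PS19 held different mixtures. Igfbp2 made up 46.9%, 36.7% and 18.7% of the sum. The share of Igfbp5 was 12.6%, 32.0% and 18.1%. Shares within a library do not depend on its scaling. Per Igfbp5, Igfbp2 had an FPKM of 3.72 in WT (3.51 to 3.95), 1.15 in PS19 (1.09 to 1.21) and 1.03 in PS19 Zbp1+/- (0.936 to 1.14), so the pair stood near equal in both PS19 genotypes, although Igfbp2 was 3.29-fold and Igfbp5 2.97-fold lower in PS19 Zbp1+/-. Igfbp4 had the largest share in PS19 Zbp1+/-, 25.4%, against 15.9% in WT and 13.2% in PS19.

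**Figure D5:**
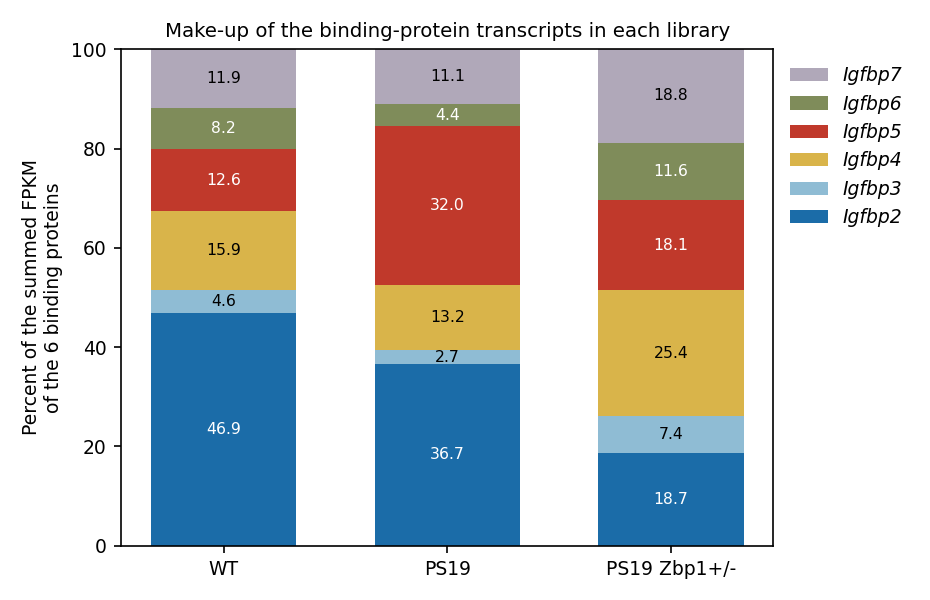
Percent of the summed FPKM of the 6 binding proteins that each contributes in WT, PS19 and PS19 Zbp1+/-, 1 library each. Igfbp2 goes from 46.9% in WT to 36.7% and 18.7%, and Igfbp5 is largest in PS19 at 32.0%.

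Most other parts of the system were weakly expressed, apart from Htra1 and Insr. Of the 12 partners Igfbp1, Igfbpl1, Igfals, Ins1, Ins2, Insr, Insrr, Pappa, Pappa2, Stc1, Stc2 and Htra1, 4 could be tested between PS19 and WT, 3 between PS19 Zbp1+/- and PS19, and 4 between PS19 Zbp1+/- and WT, and none was called. Igfbp1 and Ins1 had 0 reads in every library, which for Igfbp1 allows an FPKM of up to 0.114 in WT and PS19 and 0.124 in PS19 Zbp1+/-. Pappa, the protease that cuts Igfbp4 and frees its ligand, had 27 reads in WT tissue, 51 in PS19 and 2 in PS19 Zbp1+/-, with PS19 at 1.89-fold WT (1.16 to 3.13) and PS19 Zbp1+/- at 0.0428-fold PS19 (0.00505 to 0.163). Htra1, a secreted protease with a binding-protein domain, had 3353, 3236 and 4282 reads. Igfbpl1, a binding-protein-like gene, had 60, 21 and 7 reads. Weakly expressed genes had lower counts in PS19 Zbp1+/- more often than in the other libraries, as given beside Igf2. The shares given there cover genes with 30 to 55 reads in both other libraries, which leaves out Pappa and Igfbpl1. How far their low counts in PS19 Zbp1+/- share that pattern was not tested. Counting error is not the only uncertainty in them.

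Relatives that share the binding-protein domain (Cyr61, Ctgf, Nov, Wisp1, Wisp2, Wisp3, Esm1, Crim1, Kazald1 and Htra3) had 1 of 7 genes called between PS19 and WT, and 1 of 7 between PS19 Zbp1+/- and PS19. Both calls were Nov, a matrix protein of the CCN family, with 2626, 983 and 4128 reads. It fell by 1.38 log2 units from WT to PS19 and rose by 2.14 from PS19 to PS19 Zbp1+/-, with PS19 the lowest library as for Igfbp3 and Igfbp6. Over all genes tested, 0.291% were called lower in the first of these comparisons and 2% higher in the second. Between PS19 Zbp1+/- and WT, 0 of 6 were called. Of the Igf2 mRNA-binding proteins, Igf2bp3 had 90, 105 and 134 reads, Igf2bp2 had 8, 8 and 11, and Igf2bp1 had none.

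Downstream of the receptors, 33 of 34 signalling genes could be tested in each comparison, from the adaptors Irs1, Irs2, Shc1 and Grb2 through the kinases Pik3ca, Akt1 and Mtor to the Foxo factors. None was called between PS19 and WT, with 20 above 0, 13 below and a median of 0.05. Between PS19 Zbp1+/- and PS19, 1 was called higher, where 2% of all genes were, and none lower, where 5.16% were. The gene called was Foxo6, a forkhead factor of hippocampal neurons. It had 910 reads in WT tissue, 450 in PS19 and 1596 in PS19 Zbp1+/-, and rose by 1.85 log2 units, or 3.87-fold in reads (3.49 to 4.31). PS19 was its lowest library, at -0.95 in PS19 minus WT and 2.03-fold below WT in reads (1.81 to 2.27). PS19 Zbp1+/- was 1.91-fold WT (1.76 to 2.08). Markers of excitatory neurons had a median of 0.40 in PS19 Zbp1+/- minus PS19 and ran from -0.76 to 1.10. Of the 7 markers, 6 lay above 0 and 1 below, and 1, Slc17a7, was called higher. Their part in the Foxo6 value was not tested. The median of the signalling list was 0.10 there, and 0.18 between PS19 Zbp1+/- and WT, where none was called. Shc1, an adaptor of the receptors, had the order of Igf1r with 223, 385 and 167 reads.

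The genes whose pattern over the 3 libraries was most like a member were sought among 11968 or 11969 protein-coding genes with at least 100 reads in any library, by the distance between the pairs of log2 read ratios (PS19 over WT, PS19 Zbp1+/- over PS19). With only 3 libraries, many genes share a pattern: 230 lay within 0.25 of Igf1, led by E130308A19Rik, Ephb4, Cd151, Stard13 and Epha6 at distances of 0.025 to 0.044. Nearest to Igf2 were Islr, Bcar3, Rps27l, Gadd45g and Pcp4, at 0.035 to 0.082, with 27 genes within 0.25. Igfbp2 had only 6 genes within 0.25, the nearest being Ogn, Ifitm2, Mapk15, Catip and Cox6b2 at 0.095 to 0.154. Ogn is one of the meningeal fibroblast markers above, with 210, 169 and 50 reads. The same measure for Igfbp5, added after its values were seen, gave Ctsz, Pros1, Csf1 and Rtkn2 among its nearest genes, at 0.086 to 0.126, with 23 genes within 0.25. Ctsz, a lysosomal cathepsin, had 647, 1716 and 503 reads, and Csf1, a growth factor for microglia, had 460, 1276 and 405. Likeness over 3 libraries is a description of these values.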

How the data were processed

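RNA of 3 hippocampal libraries, 1 each of WT, PS19 and PS19 Zbp1+/-, was extracted with TRIzol and made into libraries with an NEB Next Ultra kit, per the labels' protocols. The authors deposited 1 table of FPKM values with the length and position of 54532 genes. Trim Galore 0.6.5, STAR 2.5.3a, featureCounts 2.0.4 and the build mm39 are named in the submitters' processing notes, without roles. The positions in the table instead equal GENCODE M21 (GRCm38) for 98.3% of 54495 shared gene IDs and for all 10 members, so they are given as GRCm38. Strand setting and the treatment of reads in several genes are not given in the sources used here.

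FPKM times gene length was a whole multiple of 1 step per column in 100% of values (tolerance 0.01 reads), which gave whole reads and library sizes of 17253479, 17287957 and 15826984. These sizes are not the read totals, so the deposited FPKM carry a further scaling. Libraries were compared by their difference in log2(FPKM + 1), called at 1 log2 unit, over protein-coding genes that reached an FPKM of 1 in either of the pair. Read ratios have exact (Clopper-Pearson) 95% intervals, and levels exact Poisson intervals. With 1 library per genotype no p-value was computed. Procedures were tested on simulated data. Alternatives were pseudocounts of 0.1 and 0.5, other filters, 3 other scalings, all biotypes and thresholds of 1.5-fold and 4-fold. A floor of 3 reads on read ratios, a minimum of 50 reads and the omission of X and Y genes were added after seeing the data.

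The members and lists were chosen with earlier results of these data known. All 10 members were named, list genes at 2-fold or more (up to 6 a list), reference genes (Ttr, Cx3cr1, Cldn5, Gfap, Dcn, Zbp1 and Mapt), and the 5 genes nearest in pattern to Igf1, Igf2 and Igfbp2. Other named list genes were chosen after their values were seen. Some genes of these lists are not reported here by name. Promoters came from RefSeq (GRCm38.p6), where all 10 members matched. Scripts ran in Python 3.11.15, with matplotlib 3.10.9 for figures, scipy 1.17.1 for intervals, and pandas 2.3.3 with numpy 2.4.6.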

Additional observations from a re-analysis of the deposited data

How the results depend on the processing

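Of 26 member differences, the 4 at 2-fold or more kept their sign and their side of the threshold under every other pseudocount, filter and scaling and with read ratios. None of the other 22 passed 2-fold when 1 of these choices was changed at a time, while 4 of them changed sign. With read ratios and another scaling together, Igf1 passed it between PS19 Zbp1+/- and PS19, at 0.441 (TPM) and 0.471 (total reads). Those 4 were Igfbp7 between PS19 and WT and Igf2r, Igfbp4 and Igfbp7 between PS19 Zbp1+/- and PS19, mostly after rescaling to the same sum (TPM). That rescaling moved the median of all genes to 0.09, -0.23 and -0.14 in PS19 minus WT, PS19 Zbp1+/- minus PS19 and PS19 Zbp1+/- minus WT, and scaling by total reads moved it to -0.12 in both of the last. The called differences under TPM were 1.47 for Igfbp5 in the first, -1.99 for Igfbp2 and -1.84 for Igfbp5 in the second, and -2.20 for Igfbp2 in the last.

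Counts over all genes moved more. The main counts of higher and lower genes were 280 and 37, 255 and 659, and 133 and 283 in the same order. They were 541 and 101, 430 and 1184, and 290 and 543 with a pseudocount of 0.1. With a mean FPKM of at least 5 they were 82 and 20 in the first, 81 and 103 in the last, and 234 lower in the second. Under TPM they were 582 and 60 in the first, 1495 lower in the second and 626 lower in the last. Scaling by total reads gave 147 higher in the second and 78 in the last. The share of higher genes among calls was 27.9% in the second, against 11.1% under TPM and 14.7% by total reads, and 32.0% in the last, against 19.02% and 17.3%. Genes of every biotype gave 514 and 176, 528 and 1041, and 422 and 588. A threshold of 1.5-fold gave 806 and 344, 1197 and 1544, and 834 and 886, and one of 4-fold gave 37 and 2, 10 and 104, and 7 and 53. Read ratios with at least 3 reads gave 573 and 122, 464 and 1232, and 325 and 594.

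List genes of the growth factor system at 2-fold or more numbered 0 higher and 1 lower, 2 and 1, and 0 and 1. The main shares over all genes are given with the members above. A pseudocount of 0.1, and likewise read ratios, gave 1 and 3 in the first, 5 lower in the second and 2 lower in the last. A pseudocount of 0.5 gave 1 higher, 2 lower and 2 lower, and TPM gave 1 higher, 5 lower and 2 lower. A mean FPKM of at least 5 left 0 lower in the last 2 comparisons. A threshold of 1.5-fold gave 2 and 4, 4 and 5, and 4 and 3, and one of 4-fold gave 0 lower between WT and either other library and 1 higher and 0 lower in the second.

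The cause of these shifts was not tested. No paired analysis was possible because each genotype has 1 library, which leaves none to omit. Depth limits Igf2 and Igf1 most, at 12 to 42 and 88 to 179 reads.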
